A study of Mus musculus with 6 samples.

Results

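T-bet, the transcription factor encoded by Tbx21, was mapped across the genome of iTreg cells, which are regulatory T cells made in culture, with ChIP-seq (sequencing of the DNA that an antibody recovers with its protein). The deposited peaks at its own gene and at Eomes, the gene of a closely related T-box factor, are described here. The members were all peaks that overlap either of a pair of windows fixed by position in the mouse build mm9: chromosome 11 from 96860000 to 97080000 for Tbx21, and chromosome 9 from 118250000 to 118500000 for Eomes. Of 8925 peaks in the 3 deposited lists, 13 were members. They divided into 0 of the 78 peaks of the T-bet knockout (KO) library, 12 of the 7996 peaks of wild-type (WT) replicate 1 and 1 of the 851 peaks of WT replicate 2.

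The groups were T-bet-KO iTreg cells, with 1 ChIP library, and WT iTreg cells, with 2 ChIP libraries. All were labelled Balb/c, and all were grown from naive CD4+ T cells of mice aged 4 to 10 weeks, activated by antibodies to CD3 and to CD28 fixed to the plate at 10 µg/ml and cultured for 7 days with 33 ng/ml TGF-β1 and 20 ng/ml IL-2. The same rabbit serum against T-bet was used in every ChIP. If the KO cells lack T-bet, the KO library measures what the serum and the procedure recover without its target. The 3 input libraries were not analysed here. The labels name neither the KO allele nor the part of Tbx21 it removes. A KO peak missing at Tbx21 and sequence missing from the allele therefore cannot be told apart there, and peak lists do not show whether the KO cells lacked the protein. The labels do not say whether the WT replicates came from separate mice or cultures. The deposited names of the KO and WT replicate 2 lists open with a shared number and that of WT replicate 1 with another; what it marks is not stated, so it cannot be told apart from the difference between the WT replicates.

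T-bet and Eomes bind DNA through a shared domain, the T-box, and recognise the same short sequence. T-bet is best known for directing T helper 1 cells and for switching on interferon-γ, whereas Eomes acts mainly in cytotoxic CD8 T cells and natural killer cells and, in the embryo, in early cell fate choices. Here, a peak or site at Tbx21 or at Eomes means only a peak within the window named for that gene. Whether such a peak acts on that gene or on a neighbour was not tested.

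The starts of both genes were found in the RefSeq table of promoters (build GRCm38.p6). The 250 bases upstream of each are shown because they are the stretches searched for the letters that T-box factors recognise. No mm9 genome or annotation was used, so the peaks were not placed in exons, introns or promoters, no sequence under a peak was read, and these promoter positions cannot be set against the peak positions. The Tbx21 promoter is chr11:97115332-97115581 on the minus strand and the Eomes promoter chr9:118477939-118478188 on the plus strand, both printed 5′ to 3′ with CpG dinucleotides in capitals.
Tbx21: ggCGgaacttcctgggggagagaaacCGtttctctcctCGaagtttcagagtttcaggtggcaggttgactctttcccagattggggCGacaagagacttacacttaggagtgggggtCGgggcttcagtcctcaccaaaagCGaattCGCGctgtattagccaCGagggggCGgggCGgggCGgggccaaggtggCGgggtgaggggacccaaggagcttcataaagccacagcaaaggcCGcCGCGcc
Eomes: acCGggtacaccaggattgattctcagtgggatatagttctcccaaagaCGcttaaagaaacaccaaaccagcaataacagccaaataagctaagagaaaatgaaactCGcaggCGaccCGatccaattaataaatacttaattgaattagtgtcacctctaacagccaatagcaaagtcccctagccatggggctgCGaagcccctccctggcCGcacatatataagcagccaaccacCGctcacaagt

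Neither promoter held the T-box letters AGGTGTGA on either strand, nor the shorter GGTGTGA or GGTGTG nested within them. Among the 32851 promoters of the table, 1.12% held AGGTGTGA, 3.33% GGTGTGA and 16.3% GGTGTG in the same 250 bases, so absence of the letters was the usual state. It says only that they are not in these windows. The promoters differed in base composition. Tbx21 had 60.8% G and C and 16 CpG, and 73.9% of promoters had a lower G and C content. Eomes had 46.4% and 8 CpG, with 28.4% of promoters lower. In that build, the nearest named protein-coding genes on the chromosome were Osbpl7 and Tbkbp1 on the sides of Tbx21, and Cmc1 and Golga4 on those of Eomes.

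Peak lists give each peak a position and a score. The score is the authors' peak caller's own value, of unstated scale and never below 70.10 in these lists, and it ranks peaks within a list only. The KO library had no peak in the Tbx21 window. WT replicate 1 had 9 peaks there, which was many for a window of this size, and WT replicate 2 had 1. With 1 KO library and scores that cannot be compared between lists, no test over samples was made, and the KO list is so short that a KO peak is rare anywhere: of 11985 windows of 220 kb tiled along the autosomes and X, 0.484% held one. The missing KO peak is therefore near the background and is not a result about Tbx21. The nearest KO peak to any Tbx21 member lay 4502 kb away.

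The 9 replicate 1 peaks of the Tbx21 window fell into a tight group of 6 and 3 scattered peaks. The group, singled out after its positions were seen, ran from 96988271 to 97005186, a span of 16.9 kb with gaps of 1.52 to 5.54 kb between neighbours. It was separated by 43.2 kb from the nearest scattered peak on the lower side, and no replicate 1 peak followed for 516 kb on the upper side.

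Within the group, the highest score was 329, at the peak from 97002109 to 97002477, which was also the widest at 369 bp. The first peak of the group, from 96988271 to 96988543, scored 290. These peaks ranked 479th and 651st of the 7996 in the list, and both lay in its highest score decile. The peak from 97004908 to 97005186, the last of the group, scored 255 and ranked 860th. The peak from 96992168 to 96992435 scored 229. The peak from 96990348 to 96990642 scored 147. The weakest of the group, from 96997978 to 96998133, scored 104, just below the list's median of 108, so 5 of the 6 exceeded it.

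The 3 scattered peaks lay on the lower side of the group. The peak from 96891130 to 96891350 scored 153, above the grouped peaks that scored 147 and 104. The peaks from 96911968 to 96912124 and from 96944950 to 96945119 scored 90.5 and 76.6, below every peak of the group and below the list's median. The scattered peaks were 157 to 221 bp wide (median 170 bp), against 156 to 369 bp in the group (median 276 bp). The median of the whole list was 175 bp. The narrowest grouped peak was thus narrower than every scattered peak.

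**Figure D1:**
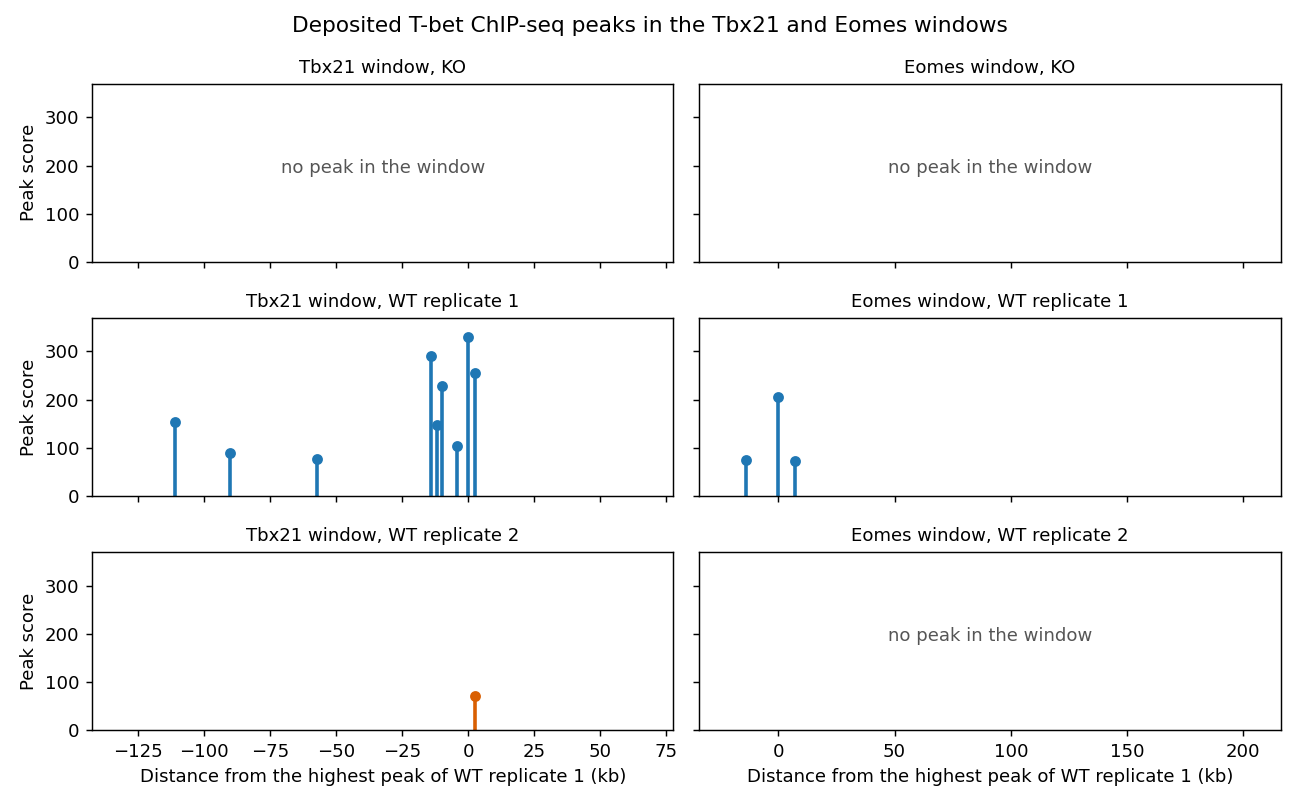
Score of each deposited peak against its distance in kb from the highest WT replicate 1 peak, in the Tbx21 window (left) and the Eomes window (right), with the KO list on top and the WT replicates below. Each line and dot is 1 peak; the 6 grouped peaks of replicate 1 stand beside the highest at Tbx21, and replicate 2 has 1 peak there, with a score of 71.0.

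The single replicate 2 member met the last peak of this group. It ran from 97004858 to 97005136 and scored 71.0, close to the lowest score of its list: 20 of the 851 replicate 2 peaks scored lower. Both peaks were 279 bp wide, shared 229 bp and were offset by 50 bp at each end. Over all 760 pairs of overlapping WT peaks the median distance between midpoints was 31.0 bp, and 30.3% of pairs were farther apart than this one. Replicate 1 peaks of such pairs had a median score of 261, close to the 255 here. The replicate 2 peak met no KO peak, and 5.41% of all replicate 2 peaks did. The pair was ordinary in its distance and its replicate 1 score, and near the end of the list in its replicate 2 score. Of the 86 replicate 2 peaks that scored below 75, 59 met a replicate 1 peak, or 68.6% (exact 95% binomial interval 57.7 to 78.2%), against 85.4% of all replicate 2 peaks.

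Of the 9 replicate 1 peaks at Tbx21, 1 was met by replicate 2, or 11.1% (exact 95% binomial interval 0.281 to 48.2%). Of all replicate 1 peaks, 9.50% were met, so the share at Tbx21 was near the background. None of the 9 was met by a KO peak (0%, interval 0 to 33.6%), against 0.550% of all replicate 1 peaks. These intervals cover counting error over peaks only, and neighbouring peaks are not independent of each other.

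The strongest Tbx21 sites of replicate 1 were not the one found again. Replicate 2 had no peak at the sites with scores of 329 and 290. In the score decile to which they belong, 47.1% of replicate 1 peaks were met by replicate 2. The site that was met belongs to the next decile, in which 16.5% were met. That decile runs from 187 to 263, and this site, with a score of 255, lies near its upper edge. Among replicate 1 peaks scoring at least 329, 290 and 255, the shares met were 54.0%, 50.2% and 45.9%, so the deciles overstate the contrast between these sites. Among the 480 replicate 1 peaks that score at least 329, 221 had no replicate 2 counterpart. A strong replicate 1 peak without a counterpart was thus common in this series. The replicate 2 peak was 2.38 kb from the highest replicate 1 peak and 16.3 kb from the peak that scored 290. Depth is unknown for every library, so a site missing from the shorter list is not shown to be unbound.

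**Figure D2:**
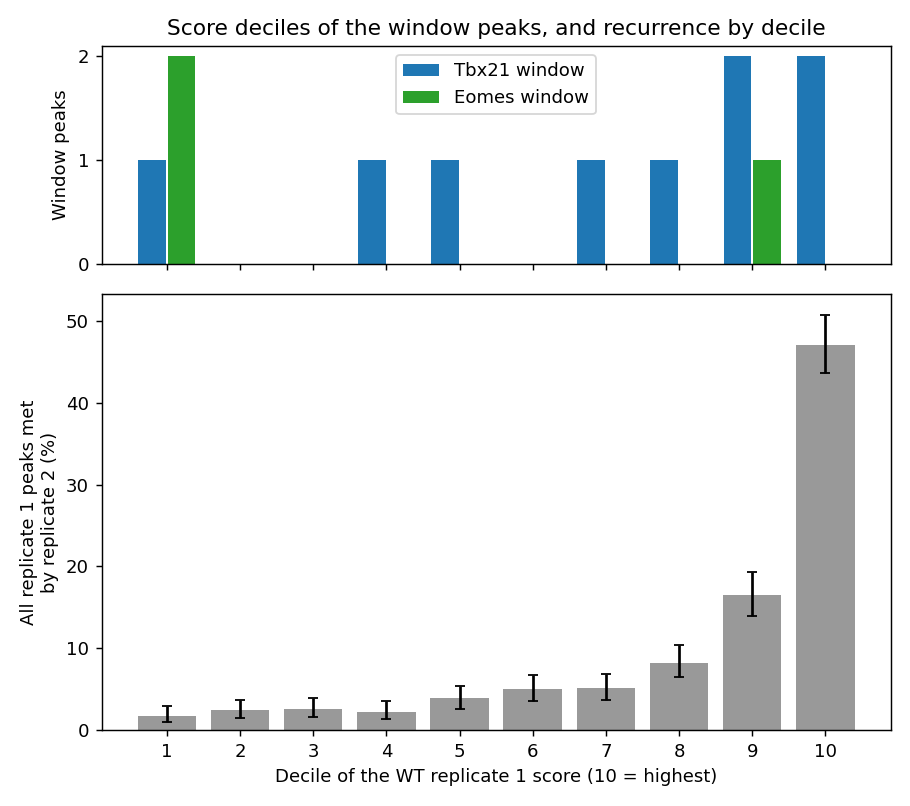
Top, number of WT replicate 1 peaks of the Tbx21 and Eomes windows in each score decile of that list; bottom, percentage of all replicate 1 peaks in each decile that overlap a replicate 2 peak, with exact 95% binomial intervals. Of the 2 Tbx21 peaks in the highest decile, where 47.1% of the list was met, neither was met.

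The Tbx21 window stood out for the number of its replicate 1 peaks. Its 9 peaks correspond to 4.09 per 100 kb (exact 95% Poisson interval 1.87 to 7.77), against 0.510 per 100 kb over chromosome 11 and 0.303 per 100 kb over the autosomes and X. The interval treats peaks as independent, which grouped peaks are not, so it may be too narrow. At least 9 replicate 1 peaks were found in 72 of the 11985 tiled windows, or 0.601%, and 45 of them held more. Windows with at least 1 replicate 1 peak made up 28.9% of all, and 2.08% of these held 9 or more. The window was drawn around a gene of interest with earlier results of these data known, so the percentages place it within the list and are no test.

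Windows as dense as Tbx21 usually held replicate 2 peaks too. Of the 72 dense windows, 53 had at least 1 replicate 2 peak, or 73.6%, against 5.15% of all windows of 220 kb. The median number was 1.5 and the highest 9. The single replicate 2 peak at Tbx21 was close to that median, and 36 of the dense windows held more. In the 72 dense windows, 17.5% of replicate 1 peaks were met. The interval of the share at Tbx21, 0.281 to 48.2%, is too wide to tell these shares apart. A KO peak was present in 5 of the 72, or 6.94%, against 0.484% of all windows of 220 kb. Dense windows thus held KO peaks more often as well. The combination of 0 KO, 9 replicate 1 and 1 replicate 2 peaks occurred in 7 tiled windows.

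The tight group of 6 could be compared with other such groups in the same list. The limit used was its own span of 16.9 kb, so every other group held a run of 6 at least as tight. Groups in which every run of 6 neighbouring replicate 1 peaks lay within 16.9 kb occurred 36 times, including the one at Tbx21. Such a group could chain more than 6 peaks and then extend beyond 16.9 kb. The counts of peaks met below are therefore not matched for group size. By its median score of 242 the Tbx21 group stood high among them: 5 groups had a higher median score and 30 a lower one. In 22 of the 36 groups, or 61.1%, at least 1 peak was met by replicate 2. Exactly 1 was met in 15 groups, as at Tbx21, and 7 groups had more. No peak in any of the 36 groups was met by a KO peak. Of all replicate 1 peaks only 0.550% were, so this absence was near the background.

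**Figure D3:**
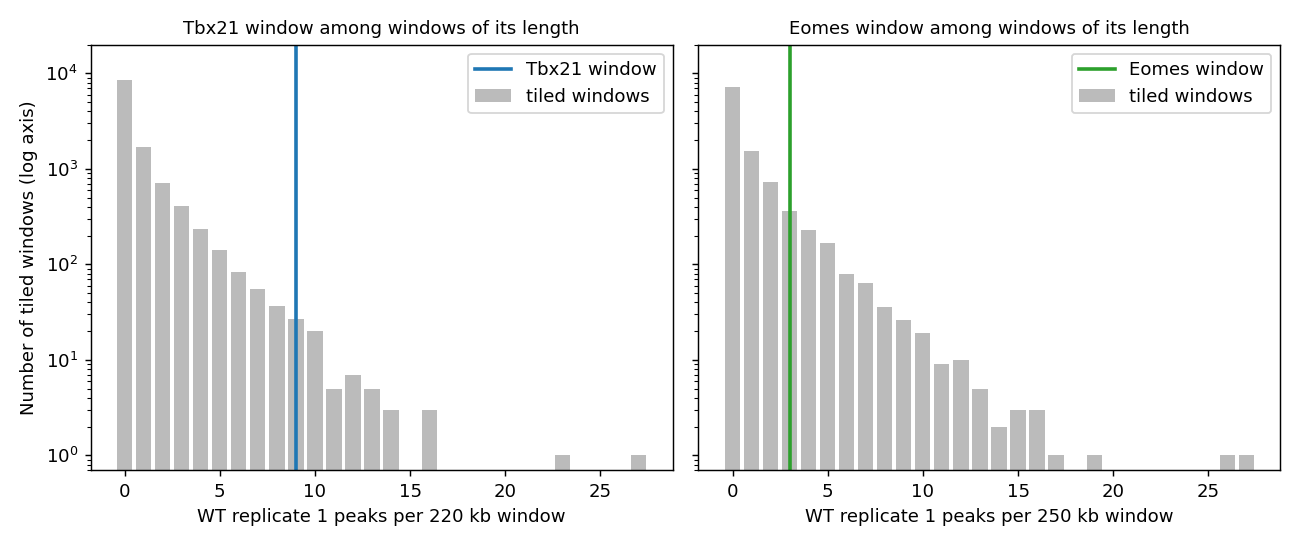
Number of tiled windows (log axis) by their count of WT replicate 1 peaks, for windows of 220 kb (left, with the Tbx21 window marked by a line) and 250 kb (right, with the Eomes window marked). The Tbx21 line stands at 9 peaks, reached by 0.601% of windows, and the Eomes line at 3 peaks, reached by 9.67%.

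The Eomes window held fewer peaks. The KO list had none, replicate 1 had 3 and replicate 2 had none. The replicate 1 peak from 118283819 to 118284175 scored 205 and was 357 bp wide, wider than 92.1% of its list. It ranked 1321st. The peaks on its sides, from 118270217 to 118270370 and from 118291275 to 118291392, scored 74.4 and 73.6, both in the lowest score decile of the list. The 3 peaks lay within 21.2 kb at the lower end of the window, and the remaining 209 kb up to its upper end held no peak in any list.

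No Eomes peak was met by another list. The share met by replicate 2 was 0 of 3 (exact 95% binomial interval 0 to 70.8%), against 9.50% of all replicate 1 peaks, which 3 peaks cannot tell apart. The nearest replicate 2 peak to any of them was 3909 kb away, and the nearest KO peak 29822 kb away. A window of 250 kb held a replicate 2 peak in 5.76% of cases and a KO peak in 0.559%, so their absence was the usual state. At least 3 replicate 1 peaks were found in 9.67% of windows of that length, and 292 of 10547 windows had the same counts in all 3 lists as Eomes. The members therefore sit in 1 library only, and no Eomes site was seen in both WT libraries.

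The replicate 1 peak just below the Tbx21 window was 2.07 kb outside and scored 73.6, less than any of the 9 members. The one just above the Eomes window was 84.1 kb outside and scored 298, more than any Eomes member, and the one just below was 69.1 kb outside and scored 82.2.

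Between the windows, replicate 1 peaks had a median score of 153 at Tbx21 and 74.4 at Eomes, against 108 in the whole list. The list median was exceeded by 6 of the 9 Tbx21 peaks and by 1 of the 3 Eomes peaks. The density at Tbx21 was 4.09 per 100 kb, against 1.20 per 100 kb at Eomes (exact 95% Poisson interval 0.247 to 3.51). The intervals overlap, but they treat peaks as independent, and the difference was not tested. The highest Eomes score, 205, was exceeded by 4 of the Tbx21 peaks. The strongest peak of both windows ranked 479th of 7996.

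**Figure D4:**
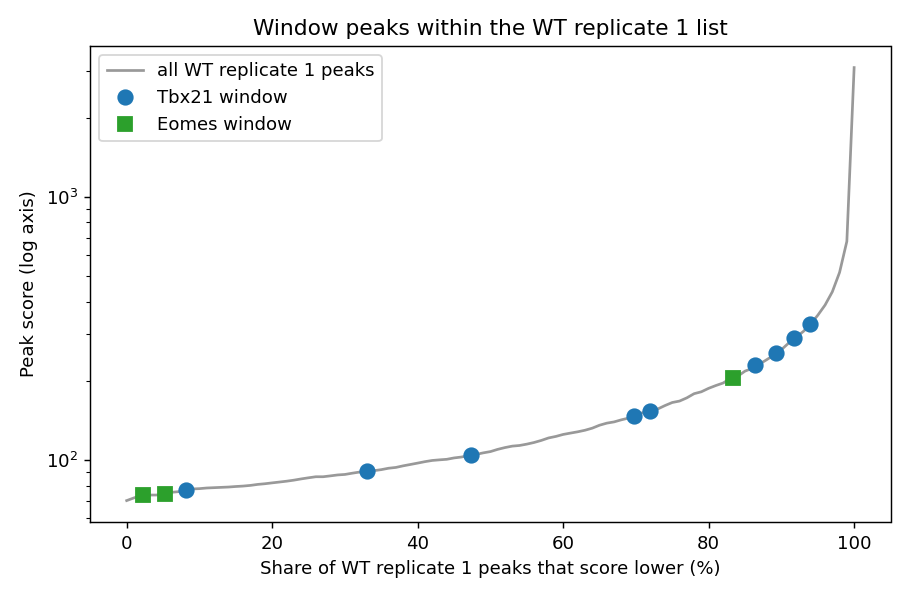
Score (log axis) of each WT replicate 1 peak in the windows against the percentage of the list that scores lower; the grey line is the whole list. The Tbx21 peaks range from 76.6 to 329 and the Eomes peaks from 73.6 to 205, and 4 of the Tbx21 peaks lie above the highest Eomes peak.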

How the data were processed

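Peak lists of 3 ChIP libraries were used. Per the submitters' processing notes, the tools were CASAVA, Bowtie2 and MACS 1.4, on mm9; settings and controls are not stated there. Each list holds peaks of 1 library, and the score the authors deposited is of unstated scale, so it was compared only within a list. Depth is unknown. Start positions were raised by 1 to count from 1. Peaks sharing at least 1 bp counted as met. mm9 chromosome lengths came from GenomeInfoDb 1.38.1 (R 4.3.3). Counts in the windows were set beside all windows of the same length tiled along the 19 autosomes and X, with no test. Intervals are exact (Clopper-Pearson or Poisson) at 95%. Promoter letters were searched on both strands in RefSeq GRCm38.p6. The members, windows and tests were chosen with earlier results of these data known. Every member was to be named. The overlap counts were tested on simulated data. Counting used Python 3.11.15 with scipy 1.17.1 and numpy 2.4.6, and plotting matplotlib 3.10.9.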

Additional observations from a re-analysis of the deposited data

How the results depend on the processing

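Peak counts in the windows were recomputed under alternatives, 1 of them (a peak within 1 kb counting as met) chosen after seeing the data. Of 62 values, 49 stayed within 1.5 times the reported count, but these include counts of 0 that stayed 0. Those were KO peaks in both windows, replicate 2 peaks at Eomes and replicate 1 peaks met at Eomes. Stricter rules could not lower them, so the total says little about stability. A score of at least 100 left 0 replicate 2 peaks at Tbx21 and hence 0 replicate 1 peaks met, and 1 replicate 1 peak and 1 WT site at Eomes. With replicate 1 cut to its 851 highest peaks, 2 replicate 1 peaks (0 met) and 3 WT sites remained at Tbx21, and 0 replicate 1 peaks and 0 WT sites at Eomes. Windows narrowed by 50 kb on each side held 0 replicate 1 peaks and 0 WT sites at Eomes. WT sites in either replicate numbered 9 at Tbx21 and 3 at Eomes; leaving out a WT replicate gave 1 (without replicate 1) to 9 at Tbx21 and 0 (without replicate 1) to 3 at Eomes, so nearly every site rests on replicate 1. The falls under the score limit and the shortened replicate 1 list follow from stricter rules, which remove peaks. The fall in the narrowed Eomes window follows from the position of its peaks near the window's lower end. The falls without replicate 1 show reliance on a single library. No paired analysis was possible because KO has a single ChIP library and the numbered input libraries were not used here. The planned comparison of T-box protein sequences and its alternative were not run, for want of a protein table. The shorter T-box letters gave 0 matches as well.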
